A study of Mus musculus with 4 samples.

Results

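Bone morphogenetic proteins (BMPs), growth and differentiation factors (GDFs) and activins are secreted proteins of the transforming growth factor β family, and 9 genes of this group were followed through dissociated mouse bone: the ligand genes Bmp2, Bmp4, Bmp6, Gdf15, Gdf10 and Inhba and the antagonist genes Fst, Grem1 and Nog. The members were the rows of the count matrices that carried these symbols, 9 of 31053 genes, read in cells with 1000 to 40000 UMIs and at most 10% of UMIs from mitochondrial genes. A unique molecular identifier (UMI) marks 1 captured transcript molecule. Wild-type mice (C57BL/6J in the study's methods) that had hung by the tail for 28 days, which unloads the hind limbs (HLU, 2 mice), were compared with untreated mice of the same kind (Ctrl, 2 mice). No allele was altered and no agent was given in either group, and the sources differed on the age of the animals, so none is stated. Tibia and femur were flushed to take out marrow cells before enzymatic digestion, though many blood cells remained. The released cells gave 1 droplet library per mouse (10x 3′ chemistry). With 2 mice in each group, the p-values set the difference between the groups against the spread between libraries of the same group.

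BMPs and activins bind complexes of type I and type II receptor kinases, which phosphorylate SMAD proteins that enter the nucleus and regulate target genes such as Id1. BMPs take their name from their capacity to induce bone and cartilage. Noggin and gremlin 1 bind BMPs and keep them from their receptors, whereas follistatin does so chiefly for activins.

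The libraries held 47819046 to 99849070 UMIs in 10000 to 10003 barcodes, and 7340 to 9485 cells per library were kept, 32217 in all, with medians of 3799 to 6294.5 UMIs per cell. HLU replicate 2 stood apart from the other 3 libraries, with 230 barcodes over 40000 UMIs against 6 to 17 and 267 barcodes under 1000 UMIs against 2143 to 2585. Pairs of libraries shared 23 to 36 barcode sequences. A cell was gated as a cell type when at least 3 genes of that type's marker list lay above their mean share of UMIs and no other list had as large a share of its markers in that state, and each gate is called by the name of its list. The chondrocyte, osteoblast, stromal and connective gates together are the skeletal cells below, 3302 and 2583 cells in Ctrl and 80 and 134 in HLU. Neutrophils numbered 1812 and 2597 cells in Ctrl and 4785 and 4956 in HLU. The tissue label could be checked against its markers: all 14 chondrocyte markers found in the files were detected in each library, and their summed level was 11659 and 11469 CPM in Ctrl against 325 and 214 CPM in HLU. CPM is here the gene's UMIs per 1000000 UMIs of the same cells in the same library. Unless said otherwise, 4 values are those of replicates 1 and 2 of Ctrl, followed by replicates 1 and 2 of HLU. An exact permutation test of a single value cannot go below p = 0.333 with 2 libraries against 2, so levels by cell type are given as a description.

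Among the 9 genes, 3 had a higher CPM in the skeletal cells of both HLU libraries than in those of both Ctrl libraries. These were Grem1, Gdf15 and Inhba, and for Inhba the groups overlapped on the scale of the test. On that scale 3062 of all 13212 genes tested in skeletal cells were higher in both HLU libraries, and unadjusted CPM was not counted over all genes. The 250 bases before the transcription starts of Grem1, Gdf15 and Inhba are shown because of their higher CPM. They are the RefSeq sequences on GRCm38.p6, 5′ to 3′ on the strand of the gene, with motif matches in capitals. The Grem1 stretch lies at chr2:113758649-113758898 on the minus strand, the Gdf15 stretch at chr8:70632457-70632706 on the minus strand and the Inhba stretch at chr13:16011601-16011850 on the plus strand, where the non-coding gene B230303A05Rik overlaps it on the other strand.
Grem1: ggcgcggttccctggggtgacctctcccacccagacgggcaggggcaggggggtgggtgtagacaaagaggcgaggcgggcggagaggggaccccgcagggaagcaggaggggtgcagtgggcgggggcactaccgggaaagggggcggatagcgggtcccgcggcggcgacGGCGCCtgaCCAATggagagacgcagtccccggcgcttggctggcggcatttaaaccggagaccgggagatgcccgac
Gdf15: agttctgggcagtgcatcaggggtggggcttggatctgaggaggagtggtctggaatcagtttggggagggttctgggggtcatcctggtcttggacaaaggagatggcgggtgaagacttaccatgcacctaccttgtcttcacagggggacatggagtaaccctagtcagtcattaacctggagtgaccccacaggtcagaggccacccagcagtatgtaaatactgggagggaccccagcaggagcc
Inhba: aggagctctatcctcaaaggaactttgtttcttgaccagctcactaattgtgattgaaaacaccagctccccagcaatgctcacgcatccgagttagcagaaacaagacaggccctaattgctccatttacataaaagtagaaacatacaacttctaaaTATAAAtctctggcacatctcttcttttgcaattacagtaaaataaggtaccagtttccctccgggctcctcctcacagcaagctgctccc
Both strands were searched for a TATA box (TATAAA, in 12.4% of 32851 mouse promoters of this length), an AP-1 site (TGANTCA, 6.75%), a cyclic AMP response element (TGACGTCA, 1.55%), a GC-rich SMAD motif (GGCGCC, 9.59%) and a CCAAT box (CCAAT, 33.8%). The Grem1 stretch, of 72% G and C, held the GC-rich SMAD motif 78 to 73 bases and a CCAAT box 69 to 65 bases before the start. The Inhba stretch, of 43.2% G and C, held a TATA box 91 to 86 bases before the start. In the Gdf15 stretch, of 56.4% G and C, none of the 5 motifs was found, which says only that these letters are not in this window. RefSeq gives Gdf15 a further start at base 70632095, inside the gene, and the 250 bases before that start held a CCAAT box 6 to 2 bases before it. A match is a description of letters and not of binding.

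All 9 genes were detected in all 4 libraries. On mm10 with GENCODE M21 the ligand genes lie at chr2:133552159-133562885 on the plus strand (Bmp2, ENSMUSG00000027358), chr14:46383520-46390669 on the minus strand (Bmp4, ENSMUSG00000021835), chr13:38345107-38500302 on the plus strand (Bmp6, ENSMUSG00000039004), chr8:70629393-70632456 on the minus strand (Gdf15, ENSMUSG00000038508), chr14:33923587-33937983 on the plus strand (Gdf10, ENSMUSG00000021943) and chr13:16011851-16031621 on the plus strand (Inhba, ENSMUSG00000041324). The antagonist genes lie at chr13:114452290-114458951 (Fst, ENSMUSG00000021765), chr2:113746164-113758646 (Grem1, ENSMUSG00000074934) and chr11:89300638-89302332 (Nog, ENSMUSG00000048616), all on the minus strand. No gene on the same strand overlaps any of them. Genes on the other strand overlap Bmp4 (Gm15217 and Gm15222), Bmp6 (4930579J19Rik and Txndc5), Inhba (B230303A05Rik and Gm48444) and Fst (Gm47040). The sources used here do not state how counting treated the strand, and the part of these overlaps in the counts was not tested.

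Counting all kept cells, the HLU libraries held far fewer transcripts of Bmp2, Bmp4, Bmp6 and Nog than the Ctrl libraries. These 4 of the 9 genes passed the test (adjusted p under 0.05 by edgeR's quasi-likelihood test with Benjamini-Hochberg adjustment over all genes). The share called among all genes was 23.2% (3568 of 15385), 932 of them higher and 2636 lower in HLU. Bmp2, an inducer of cartilage and bone formation, stood at 248, 196, 5.998 and 10.3 CPM. Bmp6, a BMP that also controls iron balance through liver hepcidin, stood at 103, 75.9, 2.40 and 1.62 CPM. Bmp4, which is close to Bmp2 in sequence and acts in limb and skeletal development, stood at 8.58, 5.26, 0.265 and 0.377 CPM. Both HLU libraries lay below both Ctrl libraries for each of these ligands. Nog, which encodes noggin, stood at 4.42, 3.32, 0.176 and 0.148 CPM, again without overlap. The log2 differences of HLU against Ctrl were −4.67 (SE 0.45, adjusted p = 0.0043) for Bmp2, −5.42 (SE 0.36, adjusted p = 0.0033) for Bmp6, −4.31 (SE 0.48, adjusted p = 0.0058) for Bmp4 and −4.50 (SE 0.44, adjusted p = 0.0045) for Nog. Without HLU replicate 2 they were −5.21, −5.22, −4.70 and −4.44. In such sums, fewer cells of a type and less RNA per cell cannot be told apart, and the chondrocyte gate held 2177, 1974, 50 and 83 cells. Only released and kept cells were counted, so fewer cells in the bone and a lower recovery cannot be told apart either.

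The other 5 genes did not pass this test. Gdf15, a stress-induced ligand that acts through the receptor GFRAL in the hindbrain, stood at 88.9, 73.8, 37.8 and 15.4 CPM, with a log2 difference of −1.57 (SE 0.44, adjusted p = 0.058). Inhba, which encodes the βA subunit shared by activin A and inhibin A, stood at 172, 185, 36.9 and 89.5 CPM, with a log2 difference of −1.39 (SE 0.50, adjusted p = 0.108). Fst, which encodes follistatin, stood at 31.9, 13.8, 2.47 and 11.97 CPM (−1.54, SE 0.84, adjusted p = 0.242). For each of these 3 genes both HLU libraries were below both Ctrl libraries, but the HLU libraries differed widely from each other. Without HLU replicate 2 the log2 differences were −1.11 for Gdf15, −2.27 for Inhba and −3.21 for Fst. Without HLU replicate 1 that of Gdf15 was −2.19 and that of Inhba −0.78. Gdf10, also called BMP3B, was sparse, with 115, 53, 34 and 4 UMIs (2.04, 0.902, 0.750 and 0.0457 CPM) and a log2 difference of −1.94 (SE 1.16, adjusted p = 0.278). Without HLU replicate 1 its log2 difference was −4.74. Grem1, which encodes gremlin 1, was the single member whose groups overlapped, at 2.84, 3.13, 3.59 and 2.39 CPM (0.06, SE 0.35, adjusted p = 0.919). Thus 8 of the 9 genes were lower in both HLU libraries, as were 5411 of all 15385 genes tested. With both directions counted, 66.9% of all genes tested had groups that did not overlap. The plot of log2 differences sets these values beside those within cell types.

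**Figure D1:**
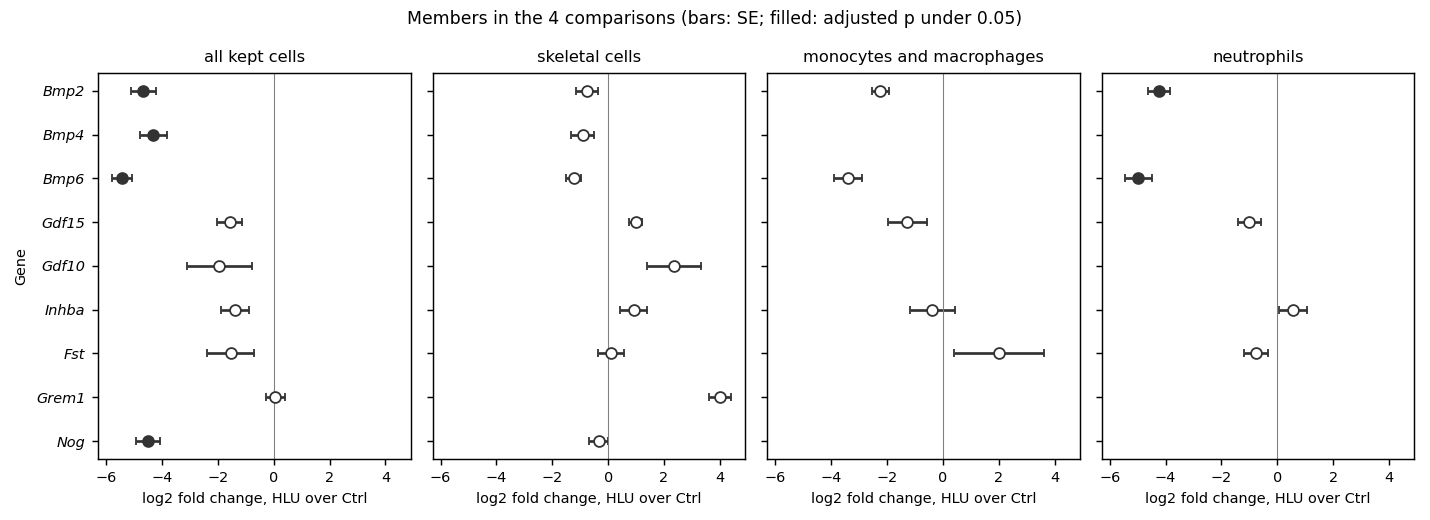
Log2 differences of HLU against Ctrl (edgeR, 2 libraries against 2) for the 9 genes in all kept cells, skeletal cells, monocytes with macrophages, and neutrophils. Points are estimates, bars are SE, filled points have an adjusted p under 0.05, and genes not tested in a comparison are not drawn. Bmp2 and Bmp6 lie below 0 in all 4 panels, whereas Grem1 lies at 0.06 in all kept cells and at 3.99 in skeletal cells.

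Where the transcripts came from differed between the groups. In Ctrl bone, skeletal gates gave on average more UMIs of each gene than all other cells, from 52.1% ± 4.73 (SD, n = 2) for Gdf15 and 73.05% ± 0.890 for Inhba to 91.5% ± 3.99 for Gdf10. In HLU bone the skeletal share was 65.5% ± 0.408 for Bmp2, 40.5% ± 1.61 for Bmp4, 79.0% ± 10.2 for Bmp6 and 82.2% ± 7.48 for Nog. It was 18.1% ± 9.88 for Gdf15, 18.7% ± 2.56 for Inhba and 17.7% ± 12.9 for Fst, so that for these genes cells outside the skeletal gates held most UMIs. Grem1 had 90.0% ± 1.81 of its UMIs in skeletal gates in Ctrl and 71.0% ± 24.6 in HLU. For Inhba the neutrophil gate alone supplied 3.38, 7.46, 61.1 and 38.7% of UMIs, and for Fst the monocyte gate supplied 64.2% of the UMIs of HLU replicate 2. These shares move with the number of cells in each gate as well as with the level per cell. In the HLU libraries those of Bmp4 rested on 12 and 33 UMIs and those of Nog on 8 and 13. The SD between 2 libraries does not measure the counting error of so few UMIs.

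**Figure D2:**
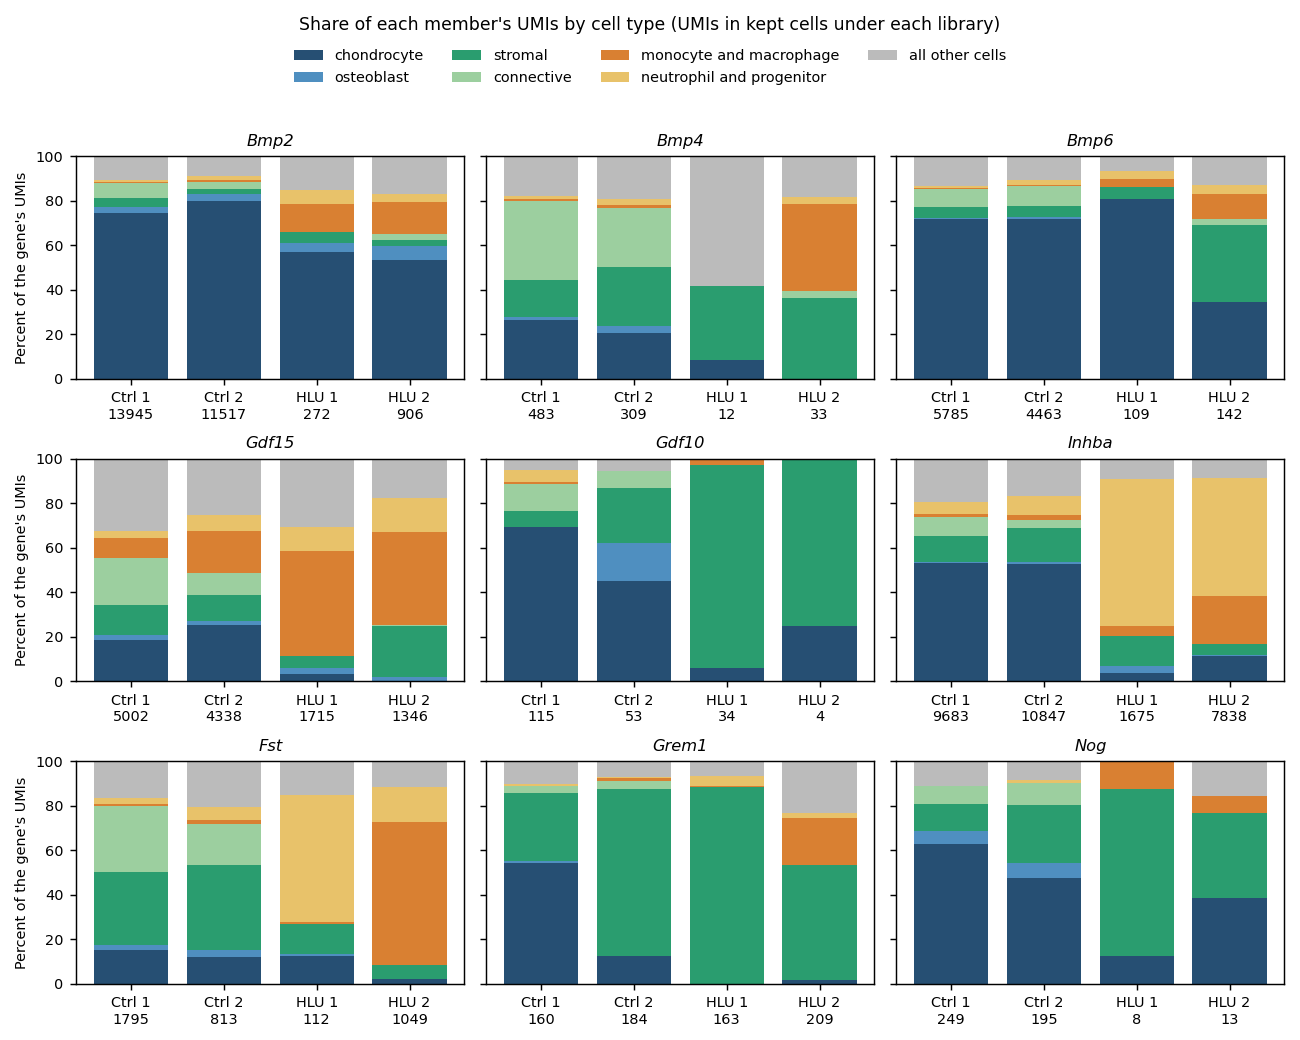
Share of each gene's UMIs (vertical axis, percent) by gated cell type, 1 stacked bar per library for each of the 9 genes, with the number of UMIs in kept cells printed under each bar. Skeletal gates make up most of the Ctrl bars, and neutrophils take 61.1% and 38.7% of the Inhba UMIs in the HLU libraries.

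Among gates of at least 20 cells, Bmp2 was highest in those of cartilage and bone. The chondrocyte gate had 475, 443, 255 and 516 CPM and the osteoblast gate 471, 515, 92.1 and 485 CPM, the latter from 5 and 8 cells in the HLU libraries. Of the 8 osteoblast-gated cells of HLU replicate 2, 7 were among those marked by a high doublet score, so the osteoblast values of that library rest mostly on marked cells. A set share of each library was marked, and whether these cells were doublets was not tested. In Ctrl the ranges of these gates overlapped, and both lay above the connective gate (190 and 117 CPM), the mural gate and the stromal gate (127 and 77.2 CPM), which overlapped among themselves. A Bmp2 UMI was found in 63.4, 58.7, 44.0 and 54.2% of chondrocyte-gated cells, whose median depths were 9003, 10136, 10397 and 10744 UMIs. The B cell gate, which should lack Bmp2, had 6.29, 5.66, 0.456 and 0% of cells with a UMI at median depths of 3537, 4217, 3746 and 2593.5 UMIs. Here and below, cells with at least 2000 UMIs were thinned to 2000 UMIs, and cells with fewer were left out of the thinned shares. The thinned shares were 39.3, 36.3, 28.2 and 33.8% in the chondrocyte gate and 3.70, 3.101, 0.313 and 0% in the B cell gate. The chondrocyte share was thus far above this background at equal depth. The HLU libraries lay on both sides of the Ctrl CPM in the chondrocyte gate. Both shares of chondrocyte-gated cells with a Bmp2 UMI, before and after thinning, were lower in both HLU libraries than in both Ctrl libraries.

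Bmp6 was likewise carried by the chondrocyte gate, except in HLU replicate 2. This gate had 191, 154, 145 and 52.3 CPM and 72.1, 72.0, 80.7 and 34.5% of all Bmp6 UMIs. Cells with a Bmp6 UMI made up 53.9, 53.1, 30.0 and 30.1% of the chondrocyte gate against 3.50, 6.42, 0 and 0% of the B cell gate, and 25.4, 24.9, 17.9 and 10.4% of the chondrocyte gate after thinning. Both HLU libraries lay below both Ctrl libraries in CPM and in both shares of cells. The connective gate followed in Ctrl with 100 and 137 CPM and did not overlap the chondrocyte gate. The stromal gate had 55.9, 66.6, 23.7 and 118 CPM, above the chondrocyte gate in HLU replicate 2. In the endothelial gate, of 8, 8, 7 and 13 cells, Bmp6 stood at 185, 176, 167 and 5.78 CPM, above the chondrocyte gate in Ctrl replicate 2 and HLU replicate 1, from 13, 22, 7 and 1 UMIs. Of the 8 endothelial-gated cells of Ctrl replicate 1, 5 had a high doublet score.

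Within chondrocyte-gated cells Bmp2 and Bmp6 were often found together. A Bmp2 UMI was present in 73.6, 72.4, 60 and 64% of cells with a Bmp6 UMI and in 51.6, 43.1, 37.1 and 50% of the other cells of the gate. Cells with a Bmp6 UMI were deeper in each library, for example 11106 against 8758 UMIs at the median in Ctrl replicate 2, and the part of depth in this difference was not tested. For Inhba the corresponding shares of cells with Bmp2 were 74.5 against 57.8% in Ctrl replicate 1 and 70.4 against 52.5% in Ctrl replicate 2, again with deeper cells on the Inhba side (9196.5 against 8792 and 11416.5 against 9370 UMIs).

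Bmp4 was lower in count and had another source. Among gates of at least 20 cells its CPM in Ctrl was highest in the connective gate, at 36.2 and 29.1, followed without overlap by the stromal gate, at 17.1 and 23.5. The chondrocyte gate had 5.81, 3.07, 1.65 and 0 CPM. The stromal gate of the HLU libraries held 15.8 and 28.8 CPM from 4 and 12 UMIs, on both sides of the Ctrl range. The 8, 8, 7 and 13 endothelial-gated cells had higher values, 85.6, 56.1, 119 and 28.9 CPM, from 5 to 7 UMIs per library, in a cell type for which BMP4 secretion is well known. For Gdf10 the chondrocyte gate held 80 of 115 and 24 of 53 UMIs in Ctrl, and the stromal gate held 31 of 34 UMIs in HLU replicate 1, of which 32.3% came from 1 cell. HLU replicate 2 had 3 Gdf10 UMIs in its stromal gate, and the B cell gate had 0 in all libraries.

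**Figure D3:**
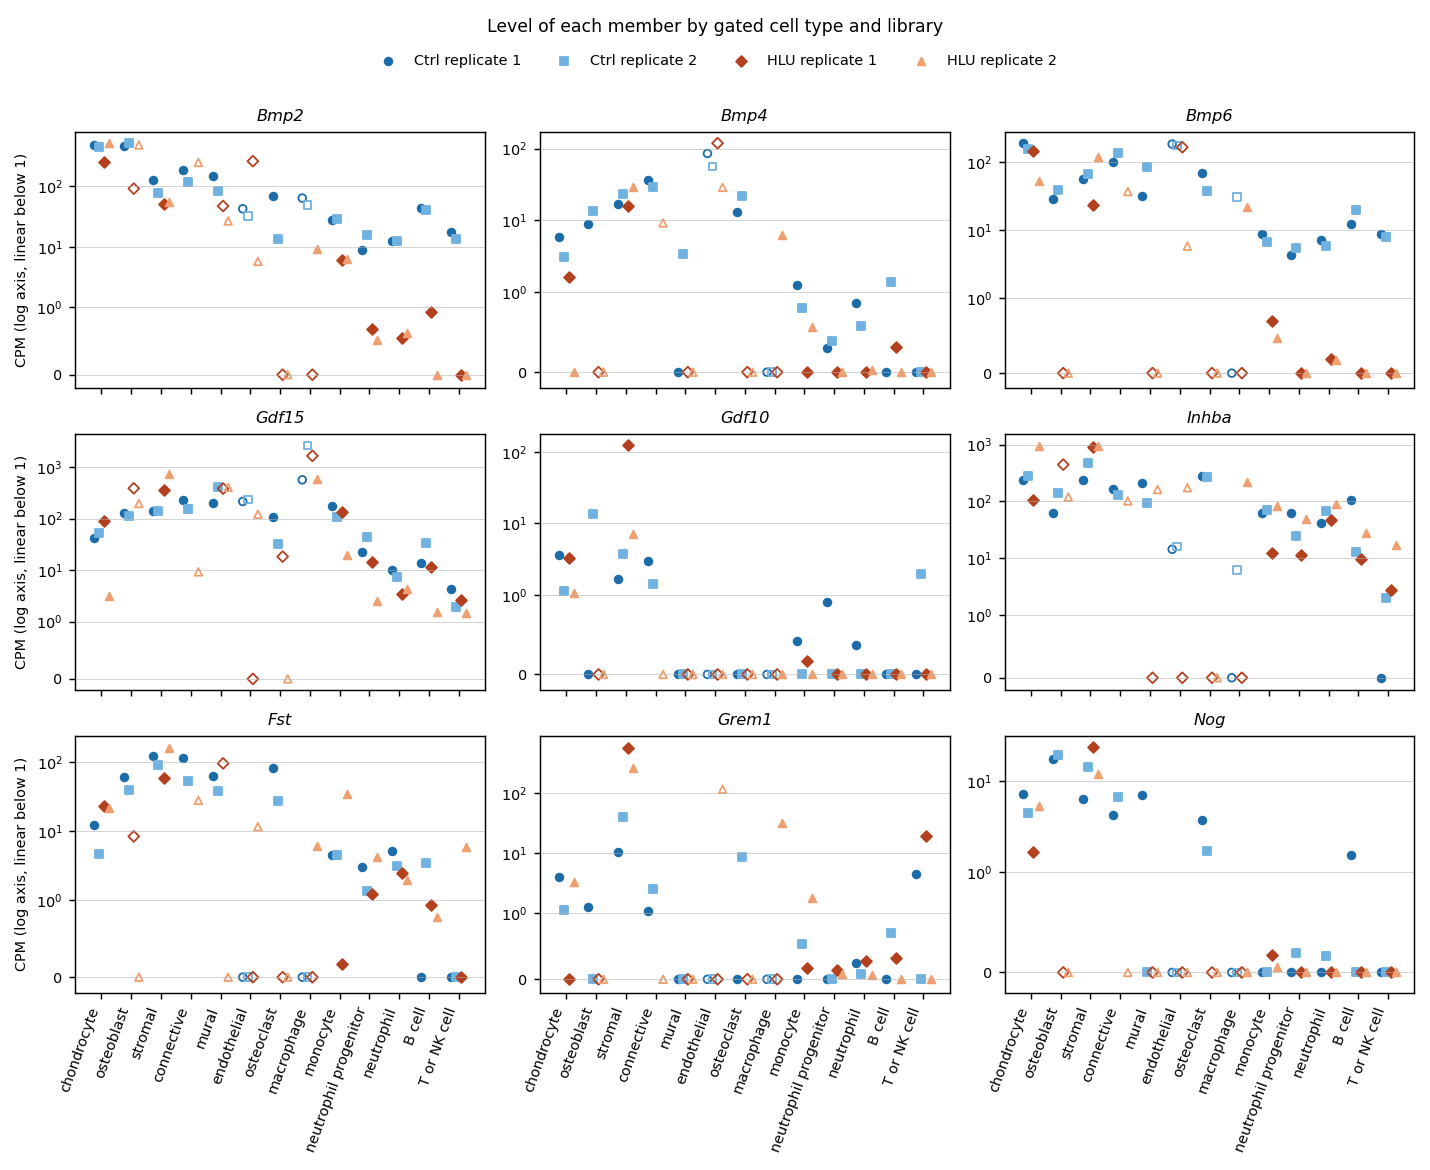
Level of each of the 9 genes (vertical axis, CPM on a log axis that is linear below 1) in 13 gated cell types, with 1 symbol per library and open symbols for gates of under 20 cells. Among gates of at least 20 cells Bmp2 and Bmp6 are highest in skeletal gates. Grem1 is highest among those gates in the stromal gate, at 10.3, 39.5, 570 and 261 CPM. Gdf15 is high in macrophages, mural and stromal cells and, in Ctrl, in connective cells, but the macrophage, mural and connective gates held under 20 cells in some libraries.

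Gdf15 had a broad distribution. Macrophage-gated cells, 5, 12, 2 and 50 in number, had high values, at 563, 2596, 1643 and 587 CPM, and mural cells had 200, 407, 380 and 404 CPM. The connective gate ranged from 154 to 224 CPM in Ctrl, above the stromal gate there, and had 9.24 CPM in the 10 cells of HLU replicate 2. The stromal gate stood at 143, 142, 356 and 746 CPM, so that both HLU libraries lay above both Ctrl libraries, but 1 cell supplied 64.4% of these UMIs in HLU replicate 1 and 29.6% in HLU replicate 2. The osteoblast gate had 130, 110, 385 and 196 CPM, the last of these from the 8 cells of which 7 had a high doublet score, and the chondrocyte gate 42.4, 53.0, 90.6 and 3.20 CPM. Monocytes had 177, 107, 136 and 19.2 CPM and neutrophils 10.1, 7.49, 3.39 and 4.35 CPM, both with lower values in HLU replicate 2 than in either Ctrl library. B cells had 13.7, 33.5, 11.6 and 1.56 CPM.

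Inhba was shared by skeletal and myeloid cells. The stromal gate had 239, 479, 894 and 957 CPM, higher in both HLU libraries than in both Ctrl libraries, with 55.8% of the UMIs of HLU replicate 1 and 32.1% of those of HLU replicate 2 from 1 cell each. The chondrocyte gate had 236, 275, 107 and 962 CPM, with the HLU libraries on either side of Ctrl. Monocytes, a known source of activin A, had 62.0, 68.9, 12.5 and 81.6 CPM. Neutrophils had 40.7, 66.6, 46.9 and 89.7 CPM, from 327, 809, 1024 and 3030 UMIs, and the groups overlapped. Neutrophils with mostly immature markers had 50.4, 90.6, 69.0 and 124 CPM, above the 23.5, 23.8, 12.98 and 24.98 CPM of those with mostly mature markers in each library. An Inhba UMI was found in 23.0, 30.4, 27.9 and 50.7% of the immature class and in 5.10, 4.82, 2.88 and 7.53% of the mature class, and after thinning in 8.75, 11.8, 10.03 and 17.99% against 3.88, 2.50, 1.84 and 4.07%. The B cell gate had an Inhba UMI in 4.90, 5.28, 3.04 and 1.56% of cells and, after thinning, in 3.70, 2.71, 1.56 and 0.719%, so that the immature class lay above that background in each library, and the mature class lay near it in 3 libraries and above it in HLU replicate 2. In B cells of Ctrl replicate 1, 86.8% of the Inhba UMIs came from 1 cell.

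Among the antagonists, Fst had its main sources in skeletal gates in Ctrl, in neutrophils in HLU replicate 1 and in monocytes in HLU replicate 2. The stromal gate had 123, 89.2, 59.3 and 161 CPM, with the HLU libraries on either side of Ctrl, and the connective gate had 113 and 52.2 CPM in Ctrl and 27.7 CPM in HLU replicate 2, where it held 10 cells. Monocytes had 11, 17, 1 and 673 Fst UMIs (4.57, 4.56, 0.173 and 34.5 CPM). In HLU replicate 2, 19.9% of monocyte-gated cells held an Fst UMI, and 4.90% after thinning, against 0, 1.95 and 0% after thinning in the other libraries. Neutrophils had 42, 38, 55 and 66 Fst UMIs (5.23, 3.13, 2.52 and 1.95 CPM), which is 2.34, 4.67, 49.1 and 6.29% of all Fst UMIs. The B cell gate had 0, 5, 3 and 1 Fst UMIs. The high monocyte value of Fst thus came from 1 library of the 4, the one that stood apart in depth.

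Grem1 had its highest CPM in the stromal gate, of 400, 271, 25 and 33 cells. Its UMIs there were 49, 138, 144 and 109, which is 10.3, 39.5, 570 and 261 CPM, and both HLU libraries lay above both Ctrl libraries. A Grem1 UMI was found in 3.50, 6.27, 68.0 and 51.5% of these cells at median depths of 11485, 11323, 8861 and 11736 UMIs, and in 1.53, 3.37, 60.0 and 22.6% after thinning to 2000 UMIs. The stromal gate supplied 30.6, 75.0, 88.3 and 52.2% of all Grem1 UMIs. In Ctrl replicate 1 the larger chondrocyte gate supplied more, 87 of 160 UMIs (54.4%) at 3.98 CPM. The B cell gate held 0, 1, 1 and 0 Grem1 UMIs in all. The make-up of the stromal gate differed between the groups. Cells with at least 2 of the markers Lepr, Adipoq, Ebf3 and Kitl, which mark the reticular stroma of marrow, numbered 16, 14, 15 and 15, against 384, 257, 10 and 18 other stromal cells. In the reticular class Grem1 stood at 137, 461, 717 and 363 CPM, and the groups overlapped. In the other stromal cells, those with fewer than 2 of these markers, it stood at 5.05, 15.1, 440 and 116 CPM, without overlap. This class may hold reticular cells in which the markers were not detected, and its make-up was not tested. Nog was sparse everywhere: osteoblasts had 17.6 and 19.5 CPM in Ctrl and 0 UMIs in the 5 and 8 HLU cells, which allows up to 25.1 and 25.5 CPM at 3 counts, the stromal gate had 6.33, 14.6, 23.7 and 11.99 CPM, and the chondrocyte gate had 7.18, 4.46, 1.65 and 5.33 CPM.

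**Figure D4:**
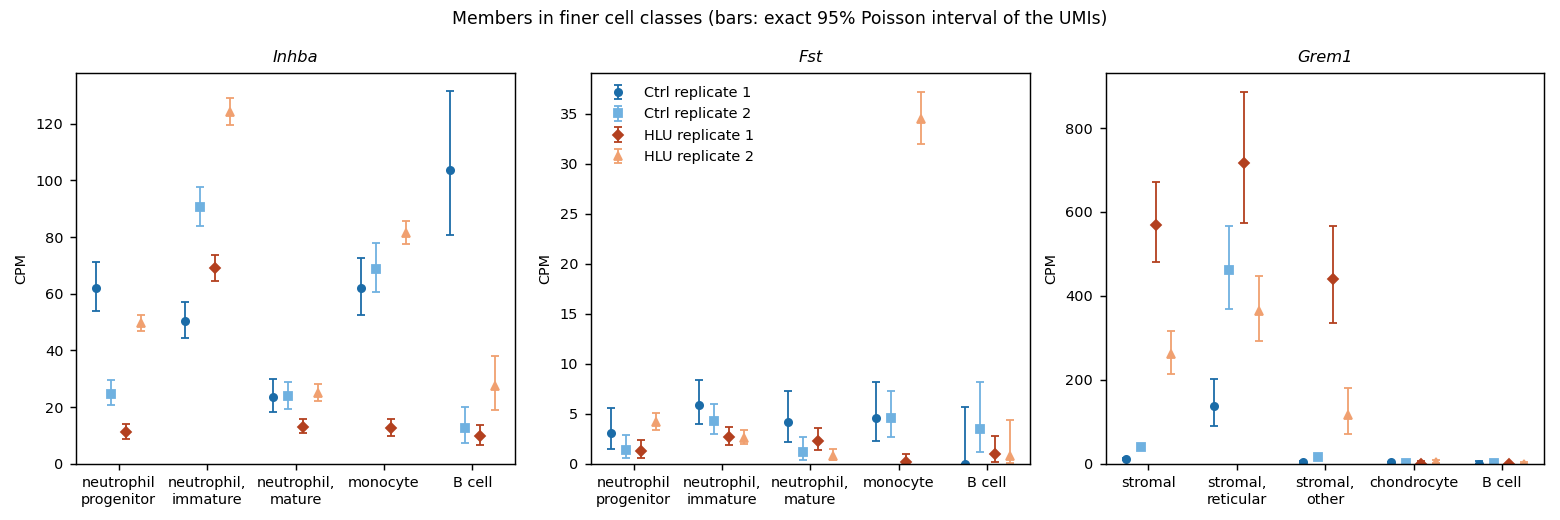
Levels (vertical axis, CPM) of Inhba, Fst and Grem1 in finer classes of gated cells, 1 point per library with exact 95% Poisson intervals that cover counting error only. Grem1 in the reticular stromal class overlaps between the groups, at 137 and 461 CPM in Ctrl and 717 and 363 CPM in HLU, and Inhba is higher in immature than in mature neutrophils in each library.

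When the counts of all skeletal cells were tested, no gene of the 9 passed, as none of the 13212 genes tested did (0% called by edgeR, with 2390 genes at an unadjusted p under 0.05 and 592 called by DESeq2). Grem1 had the largest difference of the 9 genes, with 4.42, 6.03, 147 and 70.9 CPM from 142, 168, 144 and 112 UMIs. Its log2 difference was 3.99 (SE 0.40, adjusted p = 0.0705). The direction was the same with each library left out, from 3.43 without HLU replicate 1 to 4.41 without HLU replicate 2. DESeq2 gave 4.02 (adjusted p = 3.83e-14). Gdf15 stood at 86.2, 75.9, 195 and 214 CPM (0.98, SE 0.23, adjusted p = 0.150) and Bmp6 at 154, 139, 96.0 and 64.5 CPM (−1.24, SE 0.26, adjusted p = 0.130). DESeq2 called both, Gdf15 at 1.01 (adjusted p = 0.00982) and Bmp6 at −1.22 (adjusted p = 0.00716). On the scale of the test, in which library totals are adjusted by TMM (trimmed mean of M values), Grem1 and Gdf15 were higher and Bmp2, Bmp4, Bmp6 and Nog were lower in both HLU libraries than in both Ctrl libraries, 6 of the 9 genes, where 52.3% of all genes tested had groups that did not overlap.

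The remaining 6 genes were not called in skeletal cells either. Bmp2 stood at 381, 365, 183 and 374 CPM, with a log2 difference of −0.76 (SE 0.41, adjusted p = 0.376). This difference was −1.43 without HLU replicate 2 and −0.33 without HLU replicate 1. Inhba stood at 222, 282, 351 and 839 CPM (0.90, SE 0.48, adjusted p = 0.369). This difference rested on HLU replicate 2: it was 0.08 without that library and 1.40 without HLU replicate 1. Gdf10 stood at 3.17, 1.79, 33.7 and 2.53 CPM (2.36, SE 0.96, adjusted p = 0.280). Here HLU replicate 1 decided the value, which was −0.31 without it and 3.35 without HLU replicate 2. Bmp4 stood at 12.04, 8.54, 5.11 and 8.23 CPM (−0.92, SE 0.40, adjusted p = 0.301). Fst stood at 44.7, 20.9, 30.6 and 57.0 CPM (0.11, SE 0.47, adjusted p = 0.924), with overlapping groups. Nog stood at 6.88, 6.32, 7.15 and 6.33 CPM (−0.33, SE 0.34, adjusted p = 0.640). Its groups overlapped in CPM, whereas on the scale of the test both HLU libraries lay below both Ctrl libraries.

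The skeletal cells themselves were of another make-up in the HLU libraries. The chondrocyte gate gave 2177, 1974, 50 and 83 of them, the stromal gate 400, 271, 25 and 33, and the connective gate 626, 266, 0 and 10. The summed stromal markers in skeletal cells stood at 575, 600, 1131 and 828 CPM, and the summed connective markers at 1976, 1828, 1071 and 971 CPM. Osteoblast markers stood at 1332, 1073, 4459 and 1471 CPM, and neutrophil markers, which skeletal cells should lack, at 3458, 5895, 4508 and 4882 CPM, with overlapping groups. Macrophage markers stood at 71.3, 71.2, 121 and 116 CPM, with 6 of the 9 at 0 in both HLU libraries. The part of these differences in the values of Grem1, Gdf15 and Bmp6 was not tested.

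In the joint sums of monocytes and macrophages, none of the 5 genes tested passed, and 0% of 10621 genes did by edgeR (785 at an unadjusted p under 0.05 and 257 by DESeq2). Bmp2 stood at 28.4, 30.0, 6.04 and 6.45 CPM (−2.23, SE 0.29, adjusted p = 0.0874) and Bmp6 at 8.51, 7.70, 0.690 and 0.806 CPM (−3.39, SE 0.52, adjusted p = 0.125). Both genes were lower in both HLU libraries. The summed chondrocyte markers in the same cells moved with them, at 1098, 906, 65.2 and 59.0 CPM, and their part in these values was not tested. Gdf15 stood at 186, 211, 141 and 28.5 CPM (−1.28, SE 0.70, adjusted p = 0.741). The HLU libraries differed most for activin and its antagonist. Inhba stood at 60.4, 66.2, 12.4 and 83.9 CPM, with a log2 difference of −0.37 (SE 0.82, adjusted p = 0.907). This difference was −2.40 without HLU replicate 2 and 0.43 without HLU replicate 1. Fst stood at 4.46, 4.36, 0.172 and 34.0 CPM (2.01, SE 1.62, adjusted p = 0.765). Its log2 difference was −4.49 without HLU replicate 2 and 2.98 without HLU replicate 1. For Inhba and Fst, then, each HLU library gave the opposite direction to the other.

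In neutrophils, Bmp2 and Bmp6 were lower in HLU, 2 of the 5 genes tested, where 3.2% of 11292 genes were called (3 higher and 358 lower). Bmp2 had 100, 154, 12 and 21 UMIs (12.5, 12.7, 0.549 and 0.622 CPM), with a log2 difference of −4.24 (SE 0.40, adjusted p = 0.0091). Bmp6 had 58, 71, 4 and 6 UMIs (7.22, 5.84, 0.183 and 0.178 CPM), with a log2 difference of −4.97 (SE 0.47, adjusted p = 0.0095). Without HLU replicate 2 these were −4.61 and −5.20. The B cell gate held more Bmp2 per UMI than neutrophils in Ctrl, with 29, 59, 3 and 0 UMIs (44.3, 41.2, 0.939 and 0 CPM), and 8, 28, 0 and 0 Bmp6 UMIs (12.2 and 19.5 CPM in Ctrl), and the summed chondrocyte markers in neutrophils stood at 549, 702, 27.5 and 28.6 CPM. In Ctrl the neutrophil levels of Bmp2 and Bmp6 were thus below those of a gate that should lack both genes. The part of chondrocyte RNA in the neutrophil values was not tested. Gdf15 (−1.002, SE 0.40, adjusted p = 0.396), Inhba (0.56, SE 0.50, adjusted p = 0.662) and Fst (−0.77, SE 0.42, adjusted p = 0.506) did not pass.

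The rest of the pathway was read from 70 further genes grouped by role. In all kept cells, 7 of 11 other ligands tested, 11 of 12 other antagonists, 2 of 6 type I receptors, 3 of 6 type II receptors and co-receptors, 3 of 8 SMADs and 7 of 12 target genes were called lower in HLU, and 0 were called higher in any role. Over all genes tested in these sums, 3568 of 15385 (23.2%) were called in either direction. As for the 9 genes, such sums do not tell fewer cells of a type from less RNA per cell. The median log2 differences of the roles were −3.04, −2.94, −2.003, −1.08, −1.15 and −2.70, beside 0.04 over all genes tested and −1.94 over the 9 genes themselves. Msx1, a homeobox target of BMP signalling, was among the lowest (−6.01, adjusted p = 0.00326; 30.0, 22.7, 0.485 and 0.308 CPM). The ligands Bmp5 (−5.33, adjusted p = 0.00415; 41.3, 19.8, 0.860 and 0.605 CPM) and Bmp7 (−4.93, adjusted p = 0.00372; 7.84, 12.6, 0.353 and 0.285 CPM) were lower beside Bmp2, Bmp4 and Bmp6. The antagonists Nbl1 (−5.94, adjusted p = 0.00593), Chrdl2 (−6.52, adjusted p = 0.00593), Crim1 (−3.68, adjusted p = 0.00371) and Twsg1 (−3.13, adjusted p = 0.00565) were lower beside Nog. The BMP co-receptors Rgma (−4.97, adjusted p = 0.00326) and Rgmb (−3.43, adjusted p = 0.00424), the type I receptor Acvr1 (−3.66, adjusted p = 0.00331), the type II receptor Bmpr2 (−1.11, adjusted p = 0.0385) and the homeobox gene Dlx3 (−4.96, adjusted p = 0.00473) were lower too.

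Of the genes with the most UMIs in each role, 6 did not pass the test. Smad4, the common partner of receptor-activated SMADs, stood at 53.4, 49.0, 43.4 and 22.5 CPM (−0.58, adjusted p = 0.270), and the inhibitory Smad7 had a log2 difference of −1.17 (adjusted p = 0.0769). The direct BMP targets Id1 and Id2 stood at 73.1, 80.6, 35.7 and 70.3 CPM (−0.44, adjusted p = 0.488) and at 200, 235, 81.5 and 126 CPM (−0.97, adjusted p = 0.108). The target genes Id3 (−1.92, adjusted p = 0.0081) and Id4 (−4.72, adjusted p = 0.0091), by contrast, were called lower. The type I receptor Bmpr1a had −1.54 (adjusted p = 0.0699). Acvrl1, a type I receptor for BMP9 and BMP10 best known from endothelium, stood at 16.2, 25.3, 31.8 and 13.04 CPM (0.16, adjusted p = 0.833) with overlapping groups. On the TMM scale Acvrl1 stood at 65.0, 77.3, 50.9 and 33.4 CPM in neutrophils and at 6.10, 5.83, 4.36 and 2.89 CPM in skeletal cells. Its log2 difference in neutrophils was −0.76 (adjusted p = 0.402), lower in both HLU libraries.

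**Figure D5:**
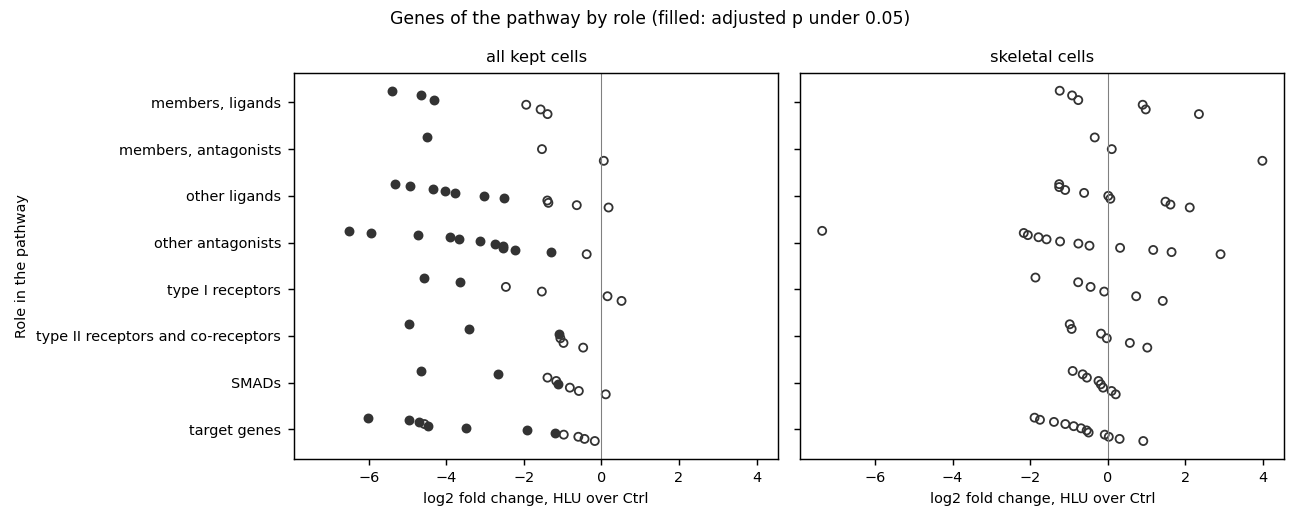
Log2 differences of HLU against Ctrl (edgeR) for the pathway genes by role in all kept cells and in skeletal cells, 1 point per gene, filled where the adjusted p was under 0.05. Filled points are all below 0 in all kept cells, and there are none in skeletal cells.

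Within skeletal cells, 0 genes of any role passed, and the medians by role lay between −0.99 for the other antagonists and 0.02 for the other ligands, beside −0.03 over all genes. The lowest adjusted p in these roles was that of Fstl1, a secreted follistatin-like glycoprotein and a leading gene of the stromal gate (2.91, adjusted p = 0.0705; 67.0, 72.4, 827 and 528 CPM), followed by Msx1 (−1.89, adjusted p = 0.0760) and the BMP antagonist Chrdl1 (1.65, adjusted p = 0.0874). In neutrophils, where 3.2% of all genes were called, 2 of 7 other antagonists, 1 of 4 type I receptors and 2 of 10 target genes were called lower and 0 higher: Nbl1 (185, 198, 2 and 10 UMIs; −6.33, adjusted p = 0.0105), Crim1 (−3.07, adjusted p = 0.0274), Acvr1 (17, 29, 2 and 2 UMIs; −4.69, adjusted p = 0.0162), Atoh8 (7, 14, 1 and 2 UMIs; −3.94, adjusted p = 0.0439) and Msx1 (11, 27, 0 and 0 UMIs). The summed chondrocyte markers in the same neutrophils moved in the same direction (549, 702, 27.5 and 28.6 CPM), and their part in these calls was not tested. In monocytes and macrophages 0 genes of any role passed.

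Over 46 sums of at least 20 cells (4 libraries by 16 gates), the genes whose log2(CPM + 1) followed each member most closely were read among 14985 genes, as a description, since sums of 1 library share its depth and its free RNA. Bmp2 ran closest to Wif1 (Pearson r = 0.969), a secreted Wnt inhibitor, Tnfrsf11b (0.955), which encodes osteoprotegerin, and Kdelr3 (0.954). Bmp6 ran closest to Kdelr3 (0.966), Vasn (0.959) and P3h4 (0.957), so that Kdelr3, a retrieval receptor of the secretory pathway, stood among the 3 nearest genes of both. Bmp4 ran closest to Wasf1 (0.898), Fbln1 (0.897) and Lrrn4cl (0.889), and Gdf10 to 2210406O10Rik (0.847), Tmeff1 (0.845) and Arxes2 (0.844). Gdf15 and Inhba had lower best values, with Rusc2 (0.840), Lif (0.838) and Thbd (0.835) for Gdf15 and Amotl1 (0.825), Ampd3 (0.821) and Irx3 (0.812) for Inhba. Among the antagonists, Grem1 ran closest to Thsd7a (0.915), Kng1 (0.906) and Pdzrn4 (0.895), Fst to Ptprg (0.880), Lama4 (0.878) and Hoxc10 (0.873), and Nog to Erbb2 (0.862), Tmem30b (0.857) and Bmper (0.855), itself a BMP-binding regulator.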

How the data were processed

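Bone cells of 2 Ctrl and 2 HLU mice were sequenced with the 10x 3′ kit. The authors counted UMIs per gene and barcode on mm10 with Cell Ranger 6.0.0 and deposited raw counts, not normalized. Their clusters, made with Seurat 4.1.0, were not used here. Their tests compared cells, whereas libraries are the replicates here.

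Barcodes with 1000 to 40000 UMIs and at most 10% mitochondrial UMIs were kept. Cells were gated with 18 lists of 168 markers: a marker counted where its share of the cell's UMIs lay above its mean share over the 4 libraries, at least 3 markers were needed, and the list with the largest share of its markers gave the gate. The minimum was set after the data were seen. The osteoclast gate is uncertain, as 68.6% of its cells had exactly 3 markers. Doublets stayed in, and an alternative left out the 2098 cells with the highest doublet scores (0.8% per 1000 cells of a library).

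UMIs were summed per library and cell group and tested with edgeR 4.0.16 under R 4.3.3 (TMM factors, filterByExpr, quasi-likelihood test, Benjamini-Hochberg over all genes, threshold 0.05), after the procedure had been tested on simulated data. The alternatives were DESeq2 1.42.0, total UMIs in place of TMM, no filter on low counts, each library left out, the replicate number as a block, haemoglobin of at most 0.2% of UMIs, 4 markers per gate, and doublets left out. Intervals on counts are exact 95% Poisson intervals. Tables and plots used Python 3.11.15, numpy 2.4.6, scipy 1.17.1, pandas 2.3.3, scanpy 1.11.5 and matplotlib 3.10.9. Promoters come from RefSeq (GRCm38.p6).

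All 9 members were described. Of the other pathway genes, those past the threshold in a comparison were named (at most the 10 with the smallest p), with the 2 of each role with the most UMIs. For likeness the 3 genes with the highest correlation were named, among genes with at least 50 UMIs. The members, lists and tests were chosen with earlier results of these data known. Genes of low p outside this rule (Fstl1, Msx1 and Chrdl1 in skeletal cells, Id3 and Id4 in all kept cells) were named after their values were seen.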

Additional observations from a re-analysis of the deposited data

Results flagged for a closer look

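Gdf15 had a log2 difference of 0.98 in skeletal cells, −1.28 in monocytes and macrophages and −1.002 in neutrophils. It stands here because the libraries moved in opposite directions in these sums. Both HLU libraries were above both Ctrl libraries in the first and below them in the others. In the monocyte gate alone the groups overlapped, with a range of 107 to 177 CPM in Ctrl and of 19.2 to 136 CPM in HLU. In Ctrl, 17 macrophage-gated cells held 460 of the 1283 Gdf15 UMIs of monocytes and macrophages. The difference between cell types was not tested, and none of the 3 values passed the test on its own.

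The barcodes with over 40000 UMIs, 6, 17, 15 and 230 in number, were left out of all comparisons. In the HLU libraries they held Bmp2 at 11.2 and 36.2 CPM, from 9 and 433 UMIs, and Grem1 at 17.5 and 25.3 CPM, from 14 and 303 UMIs. The Ctrl libraries held 1 and 6 Bmp2 UMIs and 0 Grem1 UMIs in such barcodes, from 262553 and 766680 UMIs in all against 801220 and 11974902 in the HLU libraries. In HLU replicate 2 more Grem1 UMIs lay in the excluded barcodes (305) than in the kept cells (209).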

How the results depend on the processing

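No call of a member was lost under any alternative run. The count of genes called in all kept cells, 3568, was 848 to 7726 with 1 library left out. In skeletal cells, where 0 genes were called, it was 592 with DESeq2, 1660 without the filter on low counts, 71 with total UMIs and 2 to 1313 with 1 library left out. In monocytes and macrophages, also at 0, it was 257 with DESeq2, 724 without the filter, 1 with 4 markers per gate and 0 to 4020 with 1 library left out, the highest without HLU replicate 1. In neutrophils, 361 became 1277 without the filter, 151 without doublets and 167 to 4805 with 1 library left out. The causes were not tested. The replicate numbers were taken as names of samples. Over genes, the log CPM difference of replicate 1 from replicate 2 in Ctrl was correlated with that in HLU. The correlation ran from −0.102 to 0.0497 over the 4 comparisons, which cannot show whether the numbers mark a batch. With the replicate number as a block, 68 genes were called in skeletal cells, 109 in monocytes and macrophages, 632 in neutrophils and 3428 in all kept cells. The crossed pairing, chosen after seeing the data, gave 156, 73, 343 and 3665.

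Some directions turned. Grem1 in all kept cells, at 0.06, was −0.0022 with total UMIs and −0.11 to 0.27 with 1 library left out, below 0 without Ctrl replicate 1 (−0.0067) and without HLU replicate 1. In skeletal cells, leaving out 1 library gave −0.31 (without HLU replicate 1) to 3.35 for Gdf10 and −0.50 to 0.73 for Fst, below 0 without Ctrl replicate 2 (−0.33) and without HLU replicate 2. Nog there was 0.018 with total UMIs, which moved the median of all genes from −0.03 to 0.33. In monocytes and macrophages, leaving out 1 library gave −2.40 to 0.43 for Inhba (above 0 without HLU replicate 1) and −4.49 to 2.98 for Fst (below 0 without HLU replicate 2), and in neutrophils −0.32 (without HLU replicate 2) to 1.08 for Inhba. None of these had passed the test. Of the alternatives on single members that used all libraries, 189 kept direction and side of the threshold and 24 passed it in addition. Among these 24 were Gdf15 and Inhba in all kept cells, under DESeq2 (adjusted p = 0.00596 and 0.0351) and under the block (0.0231 and 0.0464).

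With 4 markers per gate the share of UMIs from skeletal gates in Ctrl was 79.3% for Bmp2, 61.2% for Bmp4, 75.4% for Bmp6, 36.5% for Gdf15, 86.5% for Gdf10, 62.3% for Inhba, 57.9% for Fst, 79.9% for Grem1 and 78.4% for Nog, and in HLU 64.1% for Bmp2, 29.2% for Bmp4 and 15.1% for Inhba. Without doublets it was 88.8% for Bmp2, 74.5% for Inhba and 91.9% for Grem1 in Ctrl. The alternative of 4 markers was not run for all kept cells, which have no gate. With 80 and 134 skeletal cells in HLU, Nog, Gdf10 and Bmp4 there rest on few UMIs.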
